A study of Mus musculus with 12 samples.

Results

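MHC class II presentation was followed through 7 genes, H2-Aa, H2-Ab1, H2-Eb1, H2-DMa, H2-DMb1, Cd74 and Ciita, taken by symbol from a table of 40847 genes. All 7 were among the 14749 genes with enough counts to be tested. The cells were mouse fetal liver alveolar-like macrophages (FLAMs), which are grown from fetal liver as a model of the macrophages of the lung's air spaces. All 12 cultures received GM-CSF at 30 ng/ml. The 3 untreated libraries came from cells given GM-CSF alone, the 3 TGFβ libraries from cells also kept in recombinant human TGFβ1 at 20 ng/ml, the 3 Pam3 libraries from cells given the TLR2 ligand Pam3CSK4 at 25 ng/ml for 18 h, and the 3 Pam3+TGFβ libraries from cells given both. The strain, age and sex of the mice are not given in the labels, nor is it stated whether replicates came from separate animals, so p-values measure the spread between these libraries, which may be technical. The libraries are bulk RNA, in which fewer expressing cells and less RNA per cell cannot be told apart.

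Class II molecules are pairs of an α and a β chain that carry peptides from endosomes to the cell surface for CD4 T cells. H2-Aa and H2-Ab1 encode the α and β chain of I-A, and H2-Eb1 encodes the β chain of I-E. Cd74, the invariant chain, occupies the groove of new class II pairs until endosomal cathepsins cut it down, and H2-DM, made of H2-DMa and H2-DMb1, exchanges the last fragment for antigen peptide. Ciita encodes the coactivator that turns on class II promoters, where it is held by RFX proteins, CREB and NF-Y on elements called the X and Y boxes. Resting alveolar macrophages are known for low class II compared with dendritic cells.

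Of the 7 genes, 6 fell when TGFβ was given alone and Ciita rose, so the coactivator gene and the genes it is known to activate changed in opposite directions. Pam3 alone left the 3 chain genes within their replicate spread. In cells kept in TGFβ, Pam3 raised Cd74 and the 3 chain genes, while H2-DMa fell further. The level of H2-Ab1 in Pam3+TGFβ libraries overlapped that of untreated cells, whereas H2-Aa, H2-Eb1 and Cd74 stayed below their level without TGFβ.

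The 5 H2 genes lie in the MHC on chromosome 17. In GRCm39, the build the submitters' processing notes name, the GENCODE M39 annotation places H2-DMa at 34338515 to 34358958 and H2-DMb1 at 34372046 to 34379204, both on the plus strand. H2-Ab1 lies at 34476663 to 34488393 on the plus strand, H2-Aa at 34493404 to 34506798 on the minus strand and H2-Eb1 at 34504236 to 34535648 on the plus strand. Ciita lies on chromosome 16, at 10297923 to 10347694 on the plus strand, while Cd74 lies outside both regions. All 7 are protein-coding. The annotated spans of H2-Aa and H2-Eb1 overlap by 2563 bases on opposite strands, those of H2-DMa and Brd2 by 3231 bases and those of Ciita and Dexi by 29935 bases. The canonical exons of these pairs share no base, whereas H2-DMb1 shares 285 exon bases with the opposite-strand lncRNA Gm64535. The strand setting of the counting is not given in the sources used here, so reads in shared stretches cannot be assigned to a strand.

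Promoters are shown because Ciita is known to act at class II promoters, for 3 members that fell with TGFβ while Ciita rose. H2-Aa and H2-Eb1 also rose with Pam3 in cells with TGFβ, and H2-DMb1 was not called there. The RefSeq promoter table (GRCm38.p6) held windows for H2-Aa, H2-Eb1, H2-DMb1 and H2-DMa; it gave no entry for H2-Ab1, Cd74 or Ciita. The 250 bases before the start site are printed, and each window matched GRCm39 exactly at 1 place on its chromosome, for H2-Aa at chr17:34506798-34507047 on the minus strand, for H2-Eb1 at chr17:34524591-34524840 and for H2-DMb1 at chr17:34371915-34372164, both on the plus strand. Capitals mark TGATTGG, the core of the Y box bound by NF-Y, and upstream of it either AACTGATGATGCT, the longest run shared by the H2-Eb1 and H2-DMb1 windows, which lies in the X box region, or TGACGTCA, the element bound by CREB.
H2-Aa: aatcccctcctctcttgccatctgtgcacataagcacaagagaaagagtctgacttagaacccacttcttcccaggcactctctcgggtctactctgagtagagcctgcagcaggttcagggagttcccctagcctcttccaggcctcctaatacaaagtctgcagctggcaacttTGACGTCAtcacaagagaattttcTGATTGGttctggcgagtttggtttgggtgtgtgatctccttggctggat
H2-Eb1: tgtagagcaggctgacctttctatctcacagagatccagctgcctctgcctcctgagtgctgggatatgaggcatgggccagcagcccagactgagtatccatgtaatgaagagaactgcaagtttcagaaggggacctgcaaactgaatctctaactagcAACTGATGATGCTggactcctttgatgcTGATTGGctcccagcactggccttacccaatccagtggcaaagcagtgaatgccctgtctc
H2-DMb1: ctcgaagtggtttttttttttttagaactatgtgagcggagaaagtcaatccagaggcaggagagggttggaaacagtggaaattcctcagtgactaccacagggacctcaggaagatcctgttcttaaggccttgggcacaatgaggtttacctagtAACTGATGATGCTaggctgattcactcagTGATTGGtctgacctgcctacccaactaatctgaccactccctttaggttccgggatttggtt

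All 3 windows held TGATTGG on the coding strand, at bases -50 to -44 before the start site in H2-Aa, -61 to -55 in H2-Eb1 and -63 to -57 in H2-DMb1. The upstream element ended 16 bases before it in H2-Aa (TGACGTCA), 15 bases before it in H2-Eb1 and 16 bases before it in H2-DMb1 (both AACTGATGATGCT). Searched on both strands, TGATTGG was found in 7.23% of 32851 windows of the same length and TGACGTCA in 1.55%. AACTGATGATGCT was found in 2 windows (0.00609%), those of H2-Eb1 and H2-DMb1, which the choice of letters fixes. The windows of H2-DMb2, H2-Oa and H2-Ob also held TGATTGG, and the 2 windows of H2-DMa, one for each RefSeq start site, held none of the 3 motifs. Positions count from the RefSeq start sites. The H2-Eb1 window lies inside the GENCODE span given above, and the H2-DMb1 window runs past the GENCODE start of that gene. Both H2-DMa windows (34341556 to 34341805 and 34344242 to 34344491) also lie inside its GENCODE span, and the first overlaps Brd2. Whether either H2-DMa window holds the promoter in use was not tested, so the lack of motifs describes these windows only. The motif matches describe letters and show no binding.

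Library totals ran from 34036650 to 44374115 counts, and the members had between 64 counts (Ciita) and 8792 counts (H2-DMa) in a library. Levels are given as CPM, counts relative to the library size after TMM scaling. The rows LOC118568312 and AY036118 together took 0.107% to 6.73% of the counts, with high and low libraries in 3 of the 4 groups and at most 1.28% in the Pam3+TGFβ group. In those 3 groups 1 library stood apart from the other 2 by chi-square over its degrees of freedom, summed over all rows with these 2 included: untreated replicate 3 (159 and 183, against 17.7 between the others), TGFβ replicate 2 (161 and 217, against 16) and Pam3 replicate 1 (133 and 220, against 24.6). The same libraries differed from their group in the share of LOC118568312 and AY036118. It was 4.47% in untreated replicate 3 (others 0.168% and 0.226%), 0.107% in TGFβ replicate 2 (others 4.81% and 6.73%) and 0.124% in Pam3 replicate 1 (others 3.81% and 5.99%). How much of the chi-square came from those rows was not tested. Without untreated replicate 3 the members called numbered 1 in place of 2 in the Pam3 response without TGFβ, and without TGFβ replicate 2 they numbered 5 in place of 4 in the interaction. The other counts of members called in the 5 comparisons kept their number without any 1 of these 3 libraries. Macrophage markers (8 of 8 tested, Lyz2, Csf1r and Adgre1 among them) summed to 17500 to 36100 CPM, and all 8 alveolar macrophage markers were tested. Of these, Siglecf stood at 32.1 ± 2.1 CPM in untreated and 300.0 ± 9.99 CPM in TGFβ libraries, while Fabp4 stood at 31.1 ± 1.12 and 0.132 ± 0.0507 CPM (SD, n = 3). Of the B cell markers, Pax5 had no count in any library, and the 6 listed together summed to at most 0.445 CPM. Of 6 T and NK cell markers, Cd3e, Cd3g and Ncr1 had no count, and the list summed to 1.28 to 4.45 CPM over all libraries. Cd2 stood at 4.02 ± 0.461 CPM in untreated, 1.37 ± 0.213 in TGFβ, 1.79 ± 0.137 in Pam3 and 0.493 ± 0.13 CPM in Pam3+TGFβ libraries (SD, n = 3). Lck stood at 0.183 ± 0.0679 CPM in untreated, 0.437 ± 0.318 in TGFβ, 0.223 ± 0.313 in Pam3 and 0.923 ± 0.103 CPM in Pam3+TGFβ libraries (SD, n = 3), highest where Cd2 was lowest. Trac had 10 to 15 counts in each Pam3+TGFβ library and 0 in the others. The list of fibroblast and epithelial markers, which also holds the endothelial and leukocyte gene Pecam1, summed to 1.18 to 1.94 CPM in untreated, 4.81 to 5.42 in TGFβ, 1.25 to 2.13 in Pam3 and 4.77 to 5.78 CPM in Pam3+TGFβ libraries, with Col1a2 and Krt18 at 0 in all. Pecam1 was the largest part in each group, with 0.895 CPM in untreated and 2.46 CPM in TGFβ libraries on average. Epcam stood at 0.0453 ± 0.0407 CPM in untreated and 1.6 ± 0.222 CPM in TGFβ libraries (SD, n = 3). Of 8 dendritic cell markers, Flt3, Kit, Cd209a and Ccr7 had group means of at most 0.119 CPM, and the list summed to 24.5 to 35.4 CPM over all libraries, mostly from Clec9a.

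Compared per kilobase of the canonical transcript, untreated cells held most H2-DMa (176 ± 10.4 CPM per kb), followed by Cd74 (107 ± 10.6) and H2-DMb1 (56 ± 1.75; SD, n = 3). The I-A chains were lower, with 15.9 ± 1.94 CPM per kb for H2-Aa and 14.2 ± 0.911 for H2-Ab1, whose libraries overlapped. H2-Eb1 followed at 4.95 ± 0.401 and Ciita at 0.344 ± 0.0196 CPM per kb (SD, n = 3). Every other pair of neighbours in this order was separated without overlap. The annotation used for counting is not given, and reads that cross exon junctions may be lost. The order between genes carries these limits. In the TGFβ libraries H2-DMb1 stood above Cd74 and H2-Ab1 above H2-Aa, again without overlap between neighbours. The partner of H2-Eb1, the I-E α chain gene H2-Ea, had 0 counts in all 12 libraries, and H2-Eb2 had at most 1. As background, mice of the H2b haplotype carry a defective H2-Ea.

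**Figure D1:**
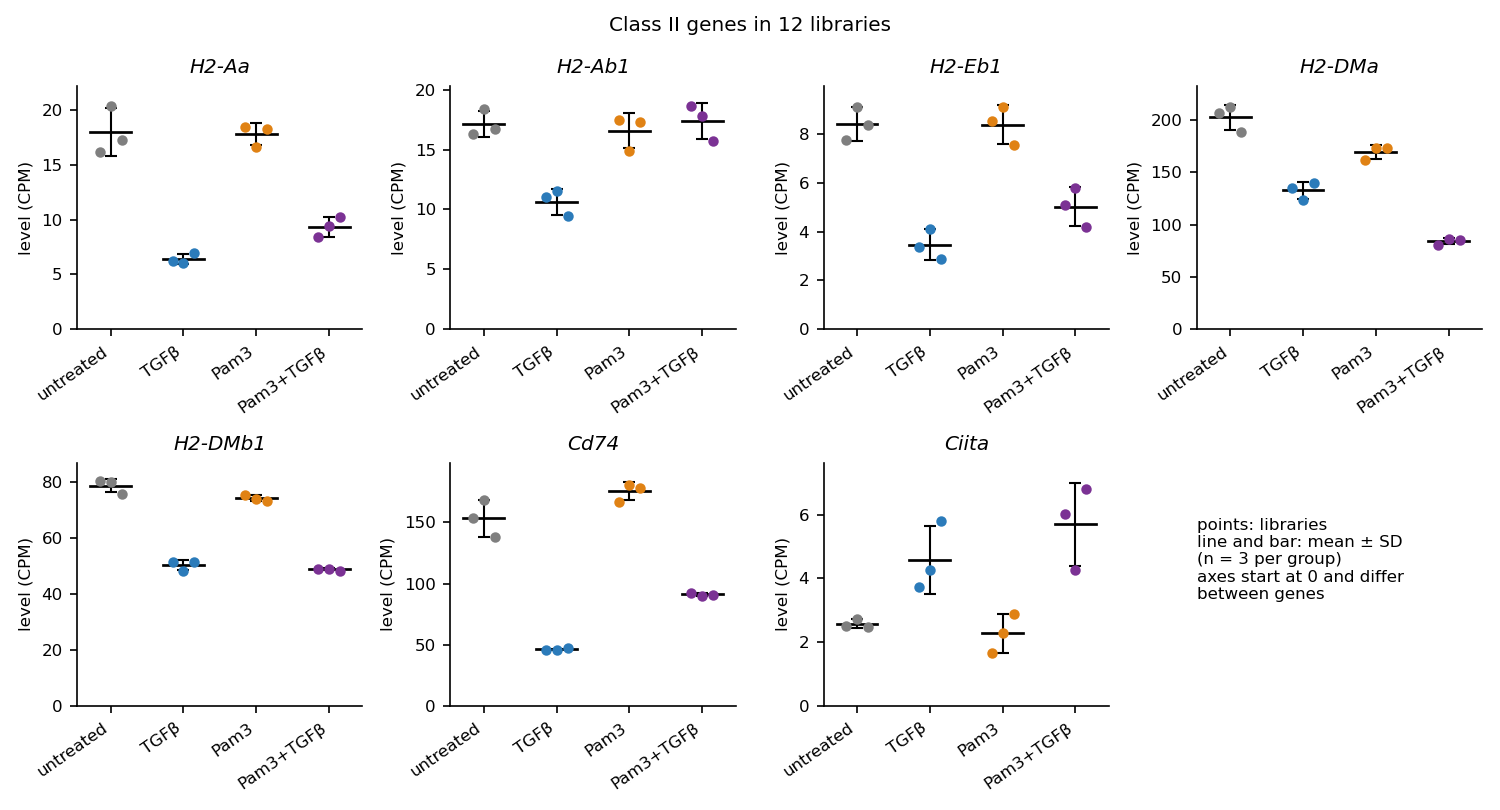
Level of each of the 7 genes in CPM (linear axis from 0, different for each gene) in the 12 libraries, grouped by treatment; points are libraries, lines and bars mean ± SD of 3. Cd74 fell from 153 to 46.1 CPM with TGFβ and stood at 91.1 CPM with Pam3+TGFβ, while Ciita was higher in both groups with TGFβ.

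TGFβ without Pam3 changed all 7 members, 6 lower and 1 higher. Of all genes tested, 51.0% were called in this comparison, 28.1% lower and 22.9% higher. The 2 groups did not overlap for any of the 7, but the share of all genes without overlap was not counted. Calls are adjusted p under 0.05 in edgeR's quasi-likelihood test over all genes. The median log2 fold change of the members was -0.69, against -0.008 over all genes.

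Cd74 stood at 154, 168 and 138 CPM in the untreated libraries, 46, 45.5 and 46.9 CPM under TGFβ alone, 167, 181 and 178 CPM after Pam3 alone, and 92.2, 90.1 and 91 CPM with Pam3+TGFβ. Its 4 groups formed 3 levels, with TGFβ lowest, Pam3+TGFβ between, and the groups without TGFβ highest and overlapping. With TGFβ alone, log2 Cd74 fell by 1.73 (SE 0.0597, adjusted p 3.38e-18), a 3.33-fold decrease and the largest among the members.

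H2-Aa, the I-A α chain, stood at 16.2, 20.4 and 17.3 CPM in untreated cells, 6.25, 6.05 and 6.97 CPM under TGFβ alone, 18.4, 16.6 and 18.3 CPM after Pam3 alone, and 8.38, 9.45 and 10.2 CPM with Pam3+TGFβ. Its groups formed the same 3 levels as those of Cd74, the 6 libraries with TGFβ all below the 6 without. H2-Aa fell by 1.49 with TGFβ alone (SE 0.107, adjusted p 9.98e-12), a 2.8-fold decrease.

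H2-Ab1, the I-A β chain, stood at 16.3, 18.4 and 16.7 CPM in untreated cells, 11, 11.5 and 9.43 CPM under TGFβ alone, 17.5, 14.9 and 17.3 CPM after Pam3 alone, and 18.6, 17.8 and 15.7 CPM with Pam3+TGFβ. Only the TGFβ libraries were low, and the other 3 groups overlapped. H2-Ab1 fell by 0.69 with TGFβ alone (SE 0.0994, adjusted p 2.05e-06).

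H2-Eb1, the I-E β chain, stood at 7.73, 9.09 and 8.38 CPM in untreated cells, 3.38, 4.12 and 2.86 CPM under TGFβ alone, 8.53, 9.08 and 7.53 CPM after Pam3 alone, and 5.09, 5.78 and 4.18 CPM with Pam3+TGFβ. The groups with TGFβ lay below those without, and did not overlap each other. H2-Eb1 fell by 1.28 with TGFβ alone (SE 0.15, adjusted p 7.63e-08).

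The peptide exchange factor behaved differently. H2-DMa stood at 207, 212 and 189 CPM in untreated cells, 135, 124 and 140 CPM under TGFβ alone, 162, 173 and 173 CPM after Pam3 alone, and 80.8, 86.4 and 85.4 CPM with both. Each of its 4 groups was separate from the others, with Pam3+TGFβ lowest. H2-DMb1 stood at 80.3, 79.8 and 75.8 CPM in untreated cells, 51.5, 48.3 and 51.2 CPM under TGFβ alone, 75.3, 73.9 and 73.3 CPM after Pam3 alone, and 48.9, 48.9 and 48.3 CPM with both. Its libraries fell into a higher set without TGFβ and a lower set with it. TGFβ alone lowered H2-DMa by 0.6 (SE 0.0532, adjusted p 5.25e-10) and H2-DMb1 by 0.64 (SE 0.054, adjusted p 1.84e-10). H2-DMb1 has a near-identical neighbour, H2-DMb2, so reads could be split between them.

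Ciita moved the other way. It stood at 2.5, 2.74 and 2.48 CPM in untreated cells, 3.74, 4.25 and 5.79 CPM under TGFβ alone, 1.66, 2.28 and 2.89 CPM after Pam3 alone, and 6.02, 4.26 and 6.82 CPM with Pam3+TGFβ. All 6 libraries with TGFβ were above all 6 without. Ciita rose by 0.83 with TGFβ alone (SE 0.212, adjusted p 0.00191) and by 1.33 with TGFβ in the presence of Pam3 (SE 0.215, adjusted p 1.22e-05), and both calls held in all 12 fits that left out 1 library. Dexi, which overlaps Ciita on the other strand, stood at 3.45 ± 0.66, 4.32 ± 0.666, 3.87 ± 0.495 and 3.62 ± 1.24 CPM in untreated, TGFβ, Pam3 and Pam3+TGFβ libraries (SD, n = 3) and was not called in any comparison.

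Pam3 in cells without TGFβ called 2 of the 7 members, H2-DMa lower and Cd74 higher, where 18.3% of all genes were called (9.62% higher, 8.66% lower). H2-DMa fell by 0.26 (SE 0.053, adjusted p 0.000842). Cd74 rose by 0.19 (SE 0.0571, adjusted p 0.0197) although its libraries overlapped those of untreated cells, and it lost its call without untreated replicate 3 (0.12, adjusted p 0.136), Pam3 replicate 2 (0.17, adjusted p 0.109) or Pam3 replicate 3 (0.18, adjusted p 0.0766). Each of these 3 fits left H2-DMa as the 1 member called. The 3 chain genes were not called. The 95% interval of the log2 fold change was -0.21 to 0.18 for H2-Aa, -0.24 to 0.14 for H2-Ab1 and -0.28 to 0.27 for H2-Eb1. Ciita, with far fewer counts, had a wider interval of -0.63 to 0.25.

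Pam3 in cells kept with TGFβ changed 5 members, 4 higher and 1 lower, where 38.5% of all genes were called (20.4% higher, 18.1% lower). With upper-quartile scaling the split over all genes was 2477 higher and 3489 lower. The groups did not overlap for the 5 members called, again with no count of overlap over all genes. Cd74 rose by 0.98 (SE 0.0592, adjusted p 4.86e-13), H2-Ab1 by 0.70 (SE 0.0993, adjusted p 2.41e-06), H2-Aa by 0.54 (SE 0.11, adjusted p 0.000278) and H2-Eb1 by 0.53 (SE 0.155, adjusted p 0.00753). The call of H2-Eb1 was lost without TGFβ replicate 3 (0.39, adjusted p 0.0709) and without Pam3+TGFβ replicate 2 (0.40, adjusted p 0.0665). H2-DMa fell by 0.66 (SE 0.0539, adjusted p 1.71e-10). H2-DMb1 was not called (-0.05, 95% interval -0.15 to 0.06), but with the counts of H2-DMb1 and H2-DMb2 summed the pair fell by 0.22 (adjusted p 0.00119). Ciita was not called (0.31, adjusted p 0.24, 95% interval -0.08 to 0.71).

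The interaction compares these responses directly, subtracting the response seen in cells without TGFβ from the response seen in cells with it. It was called for 4 of the 7 members, 3 higher and 1 lower, where 15.9% of all genes were called (10.3% higher, 5.67% lower), a split that upper-quartile scaling moved to 1255 higher and 1097 lower. The Pam3 response was higher with TGFβ for Cd74 by 0.79 (SE 0.082, adjusted p 6.58e-08), for H2-Ab1 by 0.75 (SE 0.139, adjusted p 0.000274) and for H2-Aa by 0.56 (SE 0.149, adjusted p 0.00917). For H2-DMa it was lower, with a value of -0.41 (SE 0.0754, adjusted p 0.000315). H2-Eb1 had a value of 0.54, close to that of H2-Aa, with a larger SE of 0.209 and no call (adjusted p 0.0879). It was called without TGFβ replicate 2 (0.67, adjusted p 0.039) and without Pam3+TGFβ replicate 3 (0.63, adjusted p 0.0467). H2-DMb1 (0.04, 95% interval -0.11 to 0.19) and Ciita (0.50, 95% interval -0.09 to 1.09) were not called.

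The fourth comparison asked how TGFβ changed the genes in cells that had received Pam3. It called 6 members, 5 lower and 1 higher, where 45.3% of all genes were called (23.8% lower, 21.5% higher). H2-DMa fell by 1.01 (SE 0.054, adjusted p 3.68e-14), Cd74 by 0.94 (SE 0.0579, adjusted p 5.13e-13), H2-Aa by 0.92 (SE 0.104, adjusted p 4.42e-08), H2-Eb1 by 0.75 (SE 0.145, adjusted p 0.000138) and H2-DMb1 by 0.61 (SE 0.0542, adjusted p 7.16e-10). H2-Ab1 was not called, at 0.06 (95% interval -0.13 to 0.26). The comparisons share libraries, so their values are set side by side and not counted as separate evidence.

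**Figure D2:**
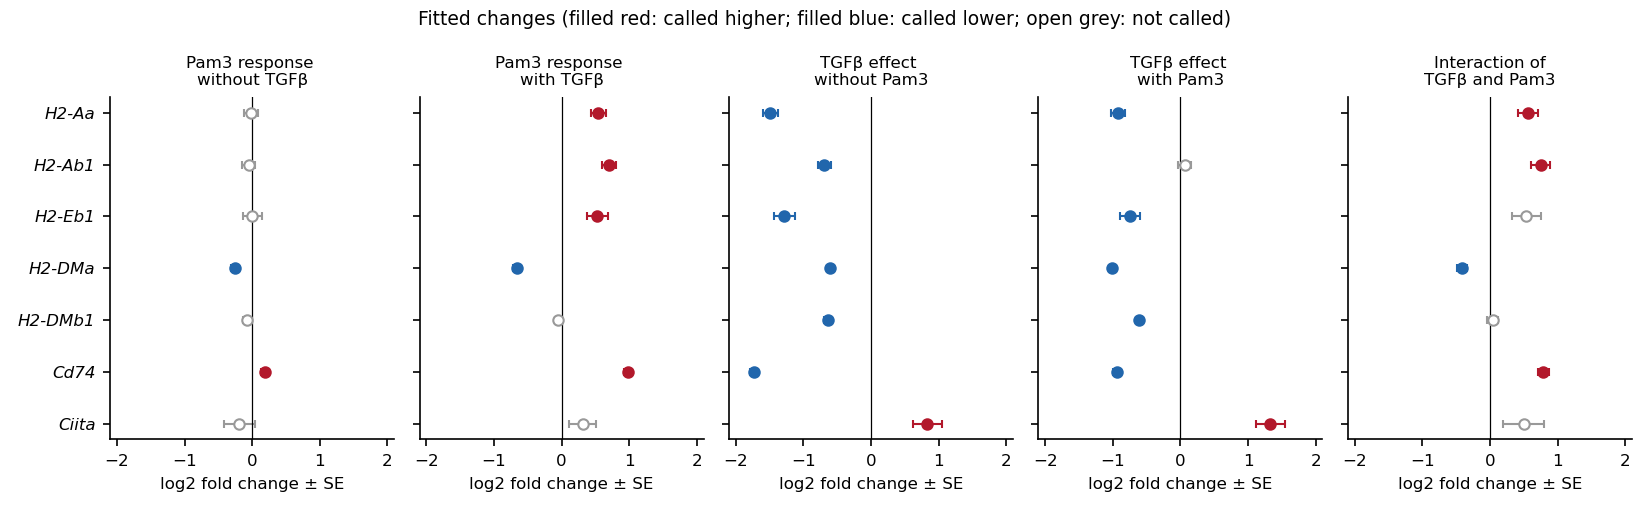
Log2 fold change (points) and SE (bars) of the 7 genes in 5 comparisons; filled points passed an adjusted p under 0.05 in edgeR's quasi-likelihood test. With TGFβ alone 6 genes lie left of 0 and Ciita right; in the Pam3 response with TGFβ the chain genes and Cd74 lie right of 0 and H2-DMa left.

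Within each library, the ratio of counts per kilobase between a pair of genes does not depend on library scaling. The 3 pairs given here were chosen after their values were seen, so the ratios are a description with no test. The ratio of H2-Ab1 to H2-Aa, the β and α chain of I-A, was 0.892 ± 0.0498 in untreated cells, 1.55 ± 0.264 under TGFβ alone, 0.867 ± 0.0269 after Pam3 alone and 1.75 ± 0.315 in the Pam3+TGFβ group (SD, n = 3). All 6 libraries with TGFβ (mean 1.65) were above all 6 without (mean 0.879). Libraries with and without Pam3 overlapped.

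The ratio of H2-DMa to H2-DMb1 was 3.14 ± 0.095 in untreated cells, 3.23 ± 0.101 under TGFβ alone, 2.78 ± 0.133 after Pam3 alone and 2.11 ± 0.0808 under both agents (SD, n = 3). The 6 libraries with Pam3 were all below the 6 without. Among cells given Pam3, the libraries with TGFβ (2.02, 2.16 and 2.16) were all below those without (2.63, 2.85 and 2.87), whereas without Pam3 the libraries with and without TGFβ overlapped. The ratio of Cd74 to H2-Aa was 6.76 ± 0.658 in untreated cells, 5.68 ± 0.327 under TGFβ alone, 7.8 ± 0.716 after Pam3 alone and 7.74 ± 0.839 under both agents (SD, n = 3). In cells with TGFβ, the libraries with Pam3 (8.67, 7.51 and 7.04) were all above those without (5.8, 5.93 and 5.31). In cells without TGFβ, the libraries with Pam3 (7.14, 8.56 and 7.69) overlapped those without (7.51, 6.49 and 6.28).

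**Figure D3:**
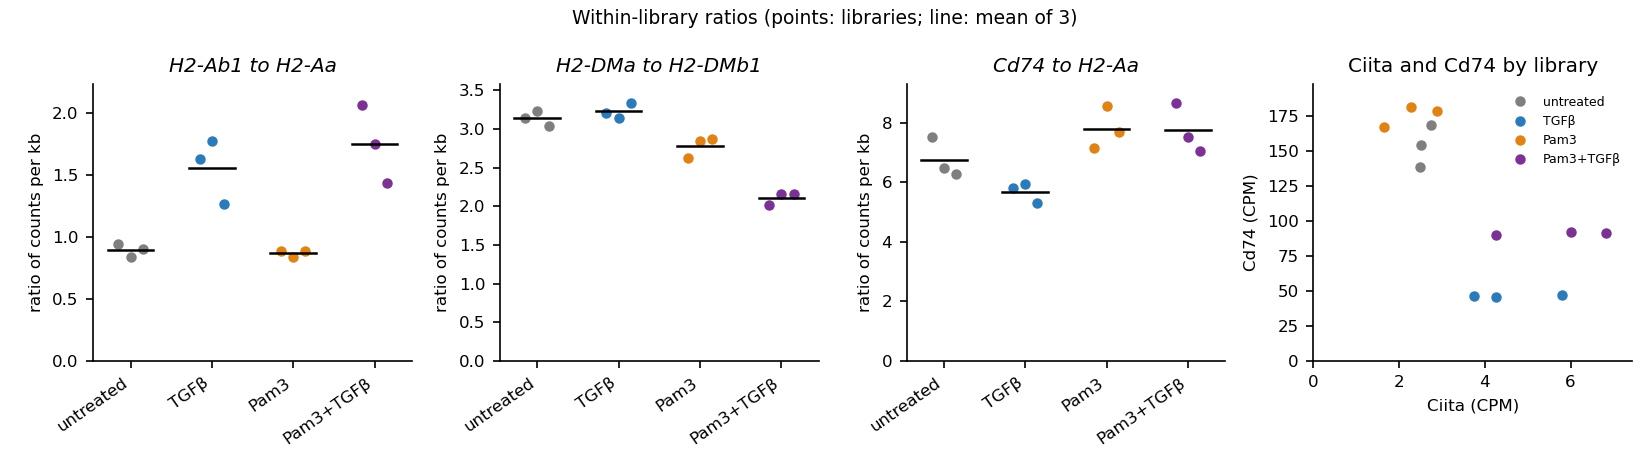
Ratio of counts per kilobase for 3 gene pairs in each library (points, with the mean of 3 as a line), and at the right the Cd74 level against the Ciita level of each library in CPM (linear axes from 0). The H2-Ab1 to H2-Aa ratio is at least 1.26 in every library with TGFβ and at most 0.938 in the others, and the libraries with the most Ciita are not those with the most Cd74.

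The other genes of the pathway were read from 4 lists. Of 39 genes listed, 36 were tested. TGFβ without Pam3 called 28 of them (9 higher, 19 lower), and TGFβ with Pam3 called 26 (13 higher, 13 lower). Pam3 called 11 without TGFβ (8 higher, 3 lower) and 26 with it (16 higher, 10 lower), and the interaction called 15 (12 higher, 3 lower). The percentages of all genes called in these comparisons are those given above, and the medians over the 36 genes together ran from -0.23 to 0.11 against -0.019 to 0.005 over all genes.

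Of the 10 antigen processing genes, all were called lower with TGFβ in cells without Pam3, with a median of -0.81. Of all genes, 28.1% were called lower there. With TGFβ in cells given Pam3, 9 of the 10 were called lower and Sppl2a higher (0.37, adjusted p 2.13e-07). Of all genes, 23.8% were called lower and 21.5% higher in that comparison. The call of Sppl2a in cells without Pam3 (-0.11, adjusted p 0.043) was lost in 9 of the 12 fits that left out 1 library and under every other setting tried except the replicate block, with DESeq2 giving an adjusted p of 0.0601. Lgmn, an asparaginyl endopeptidase, stood at 298 ± 7.1 CPM untreated and 90.8 ± 3.5 CPM under TGFβ alone (SD, n = 3), and its log2 level fell by 1.71 (adjusted p 4.66e-20). Ctsl, a cathepsin of invariant chain breakdown, fell by 1.37 (adjusted p 4.76e-18) and Ctsb by 1.31 (adjusted p 1.46e-16). Ctss, the cathepsin that makes the last invariant chain cut in many antigen-presenting cells, fell from 2770 ± 85.6 to 1700 ± 70.4 CPM (SD, n = 3). Pam3 in cells with TGFβ called 5 of the 10, 3 higher and 2 lower, against 38.5% of all genes (20.4% higher, 18.1% lower). Ctsb rose by 0.43, Ctsz by 0.61 and Sppl2a by 0.85, and Lgmn fell by 0.23 and Ctsh by 0.18, while Ctss stood at 1700 ± 70.4 CPM without Pam3 and 1700 ± 39.3 CPM with it (SD, n = 3). Sppl2a, the membrane protease that removes the invariant chain stub, rose with Pam3 by 0.37 without TGFβ and by 0.85 with it, an interaction of 0.48.

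Among further class II chains, H2-Oa, the α chain of the DM inhibitor H2-O, stood at 1.13 ± 0.358 CPM in untreated cells and 2.82 ± 0.0691 CPM with TGFβ (SD, n = 3), a rise of 1.31 (adjusted p 0.000411). Its partner H2-Ob had at most 7 counts in any library. H2-DMb2 fell with Pam3 in cells with TGFβ by 0.72 (adjusted p 5.6e-08), from 22.4 ± 0.816 to 13.6 ± 0.391 CPM (SD, n = 3), unlike its neighbour H2-DMb1, with the limit on shared reads given above.

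Of the 19 genes of class II transcription, 12 were called with TGFβ alone, 6 in each direction, against 51.0% of all genes. In the Pam3 response with TGFβ 16 were called, 11 higher and 5 lower, against 38.5% of all genes. Rfx5, the DNA-binding RFX subunit, stood at 18.6 ± 1.16, 15.2 ± 0.45, 18.7 ± 1.53 and 25.2 ± 2.23 CPM in untreated, TGFβ, Pam3 and Pam3+TGFβ libraries (SD, n = 3), with an interaction of 0.72. Its fall of 0.29 with TGFβ alone (adjusted p 0.0073) lost its call without untreated replicate 1 (adjusted p 0.0597) or TGFβ replicate 3 (adjusted p 0.0504). Rfxap and Rfxank were not called in any of the 5 comparisons. Irf1, which carries interferon signals to the Ciita gene, stood at 116 ± 2.74 CPM with Pam3+TGFβ, against 54.2 ± 0.183 CPM in untreated cells (SD, n = 3), with an interaction of 1.28. Prdm1, a repressor of Ciita in plasma cells, rose with TGFβ alone from 7.68 ± 1.38 to 17.9 ± 1.12 CPM (SD, n = 3), by 1.22 (adjusted p 1.47e-09), and stood at 33.3 ± 2.21 CPM with both agents. Irf4 fell with TGFβ alone by 2.53 (adjusted p 1e-20), from 93.7 ± 4.01 to 16.3 ± 0.978 CPM, while Irf8 rose from 80.6 ± 2.83 to 133 ± 0.714 CPM (SD, n = 3), by 0.72.

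Of 5 genes of class II turnover, 4 were called in the Pam3 response with TGFβ, against 38.5% of all genes. Marchf1 (1.27) and Cd44 (0.32) were higher, Marchf8 (-0.24) and Cd83 (-1.48) were lower, and Mif (0.12) was not called. Marchf1, the ubiquitin ligase that sends class II to lysosomes, stood at 265 ± 15.4 CPM in untreated cells, 185 ± 11.2 under TGFβ alone, 360 ± 13 after Pam3 alone and 446 ± 24 under both agents (SD, n = 3). It rose with Pam3 by 0.44 without TGFβ and by 1.27 with it, an interaction of 0.83. Cd83, which protects class II from this ligase, was low, at 3.84 ± 0.711 CPM with TGFβ and 1.37 ± 0.461 CPM with both (SD, n = 3), and fell with Pam3 in cells with TGFβ by 1.48 (adjusted p 1.42e-05).

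**Figure D4:**
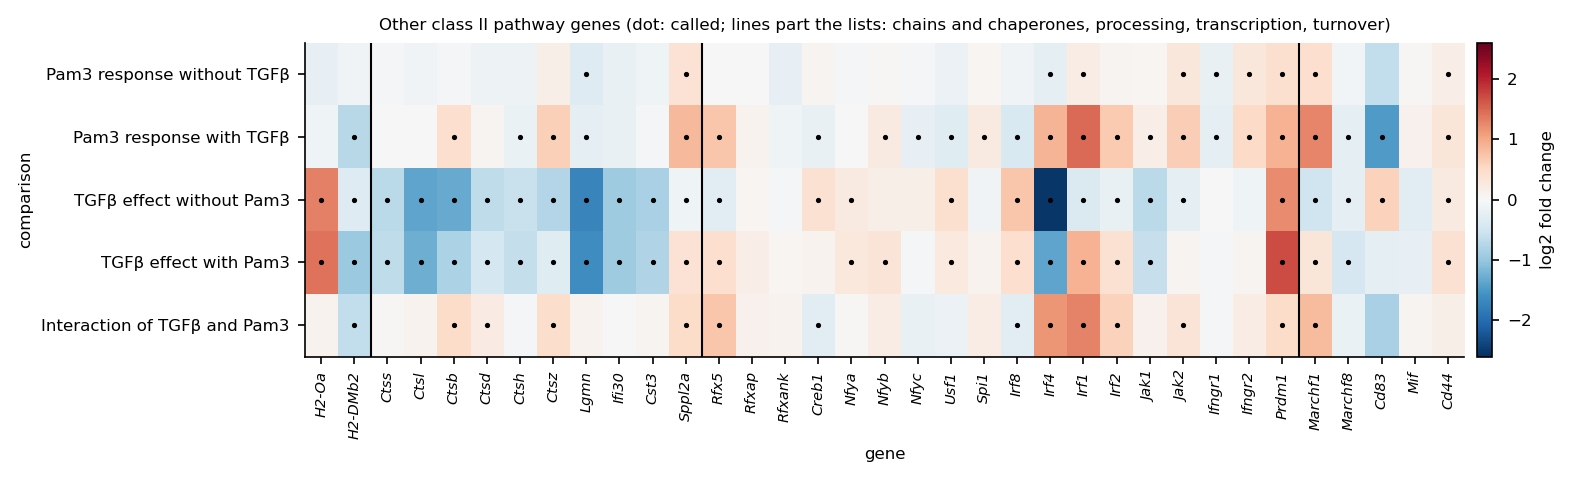
Log2 fold change (colour) of 35 other class II pathway genes in 5 comparisons; a dot marks an adjusted p under 0.05 in edgeR's quasi-likelihood test and lines part the 4 lists. The 10 processing genes lie on the blue side in the TGFβ effect without Pam3, Sppl2a only faintly (-0.11), with a call that most other settings did not keep. Irf1 is red in the Pam3 response with TGFβ.

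Dendritic cell markers were read beside the class II changes, since dendritic cells carry much class II. The summed list stood at 26.6 to 30.9 CPM in untreated libraries, 24.7 to 26.3 under TGFβ alone, 30.7 to 35.4 after Pam3 alone and 24.5 to 29.1 under both agents. Zbtb46, a dendritic cell transcription factor, stood at 4.64 ± 0.446 CPM in untreated cells and 1.42 ± 0.45 CPM with TGFβ (SD, n = 3), a fall of 1.70 (adjusted p 8.31e-07). Batf3 fell by 1.21 with TGFβ (adjusted p 1.23e-05) and rose by 1.55 with Pam3 in cells with TGFβ (adjusted p 5.53e-07), whereas Clec9a rose by 0.29 (adjusted p 0.0137) and fell by 0.40 (adjusted p 0.00176) in the same comparisons. Neutrophil markers summed to 13.1 to 15.6 CPM in untreated and 3.14 to 4.96 CPM in TGFβ libraries, mostly S100a8, with Mpo at 0 in all libraries. S100a9, the other tested gene of that list, stood at 0.253 CPM in untreated and 0.993 CPM in TGFβ libraries on average. The macrophage list summed to 31900 to 36100 CPM in untreated and 17500 to 18400 CPM in TGFβ libraries, a difference mostly of Lyz2 (mean 29800 and 15200 CPM). The other members differed among themselves, with untreated and TGFβ means of 303 and 145 CPM for Adgre1, 858 and 549 CPM for Cd68, 737 and 510 CPM for Ptprc, 983 and 820 CPM for Csf1r, 495 and 425 CPM for Csf2ra, 223 and 222 CPM for Mertk and 81.1 and 91.3 CPM for Fcgr1. The part of the cells these marker lists stand for, the T and NK cell and the fibroblast and epithelial lists given above included, in the class II changes was not tested.

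The genes most like the class II genes across the 12 libraries were sought among 12404 tested non-members with a group mean of at least 1 CPM. Against the mean standardized level of H2-Aa, H2-Ab1, H2-Eb1 and Cd74, the highest Pearson correlations were those of Lyz2 (r = 0.996), Il10rb (0.996), Lyz1 (0.994), Bcam (0.992) and A530064D06Rik (0.991). Lyz2, the macrophage lysozyme, stood at 29800 ± 2120 CPM in untreated cells, 15200 ± 460 under TGFβ alone, 31000 ± 512 after Pam3 alone and 23300 ± 366 under both agents (SD, n = 3). Lyz1 is a close paralog, so its counts are uncertain. For Ciita the highest were Zfp687 (r = 0.972), Dennd4b (0.958), Zc3h4 (0.954), Gm42226 (0.953) and Cldn34c2 (0.953). These values describe 12 libraries that fall into 4 groups, and they carry no test.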

How the data were processed

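RNA of 12 FLAM cultures was made into libraries with a stranded mRNA kit, per the labels' protocols. The submitters' processing notes name Bowtie2 2.4.1, featureCounts of Subread 2.0.0, DESeq2 1.36.0 and GRCm39. Bowtie2 does not split reads over introns, so if it aligned the reads to the genome, junction reads can be lost. The alignment settings, annotation, strand setting and handling of multiply aligned reads are not given in the sources used here. The authors' deposited counts are whole reads per gene symbol. The authors' deposited normalized values are a signal equal to the count divided by 1 constant per library, and were used only in an alternative.

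Groups come from the sample titles. Genes were kept with filterByExpr (minimum count 10), scaled with TMM and tested with the quasi-likelihood test of edgeR 4.0.16 (R 4.3.3, robust) on all 12 libraries with 4 group means, for 5 comparisons, with Benjamini-Hochberg adjustment over 14749 genes. SE is the log2 fold change divided by the root of F, and 95% intervals use the normal distribution. No replicate pair agreed within sampling noise (9.99 to 220 for chi-square over its degrees of freedom, with LOC118568312 and AY036118 included). The counts carry no molecular identifiers. The procedure was tested on simulated counts.

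The 7 members and the gene lists were chosen with earlier results of these data known. List genes are named where called in the interaction, or where called with a log2 fold change of at least 1 in size at 1 CPM or more, or for their known role. The 5 genes most like the members were picked by correlation. Promoter motifs were chosen after the sequences were seen. Transcript lengths are those of GENCODE M39 canonical transcripts. Alternatives were other scalings, DESeq2 1.42.0, limma-trend (limma 3.58.1) on the authors' normalized values, as log2 with 1 added, other filters, a replicate block, fits of the 6 libraries compared, H2-DMb1 and H2-DMb2 summed, leaving out each library and, chosen after seeing the data, a covariate for LOC118568312 and AY036118. Some genes of the lists enter the counts and sums but are not reported here by name.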

Additional observations from a re-analysis of the deposited data

Results flagged for a closer look

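The response to Pam3 differed with and without TGFβ, in size or direction, for 4 members and the 14 genes of the pathway lists named here, by the test of the interaction in edgeR. Each value is a difference of log2 responses, that of cells in TGFβ less that of cells without it. Among the members it was 0.79 for Cd74, 0.75 for H2-Ab1, 0.56 for H2-Aa and -0.41 for H2-DMa. Among class II transcription genes it was 1.28 for Irf1, 1.15 for Irf4, 0.72 for Rfx5, 0.6 for Irf2, 0.48 for Prdm1, 0.34 for Jak2, -0.28 for Creb1 and -0.29 for Irf8. Among processing genes it was 0.48 for Ctsb, 0.48 for Sppl2a, 0.45 for Ctsz and 0.21 for Ctsd. It was 0.83 for Marchf1 and -0.63 for H2-DMb2. For Irf4 the direction turned. By edgeR's quasi-likelihood test, Pam3 lowered Irf4 without TGFβ (-0.25, adjusted p 0.00346) and raised it with TGFβ (0.89, adjusted p 2.03e-11). The calls of Ctsd, Creb1 and Prdm1 were each lost in 8 or more of the 12 fits that left out 1 library. Outlying libraries were not tested for single genes, since each group has 3.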

How the results depend on the processing

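Over the alternatives other than leaving out a library, 307 of 313 member values kept their direction and their side of the threshold, as did 399 of 420 in the fits that left out 1 library. Directions turned only in values that were not called. For the Pam3 response without TGFβ, H2-Eb1 gave 0.00 in a fit of the 6 libraries compared and 0.03 with the covariate for LOC118568312 and AY036118, and the range over left-out libraries was -0.06 to 0.07 for H2-Eb1, -0.08 to 0.09 for H2-Aa, -0.09 to 0.02 for H2-Ab1 and -0.39 to 0.00 for Ciita. The interaction of H2-DMb1 was -0.01 with upper-quartile scaling, -0.14 with H2-DMb2 added (adjusted p 0.239) and -0.01 to 0.07 over left-out libraries. The number of members called in the Pam3 response without TGFβ was 1 to 2 over left-out libraries. Replicate numbers were not taken to pair the samples, since 7 of 18 same-numbered pairs, not all, had a correlation of deviations over 0.1 (range -0.174 to 0.3), against 8 of 36 pairs with other numbers (range -0.397 to 0.323). With the replicate number as a block the members called were 2, 5, 7 and 6 in the Pam3 responses without and with TGFβ and the TGFβ effects without and with Pam3, and 5 in the interaction, where H2-Eb1 was called at 0.54 (adjusted p 0.0491). Leaving out a library leaves 2 in its group, and Ciita, with 64 to 302 counts a library, limits what can be seen of its Pam3 response.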
